A study of Mus musculus with 16 samples.

Results

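Phgdh, Psat1, Asns, Slc7a11, Slc7a7 and Slc1a1 are 6 genes of amino acid synthesis and amino acid transport, out of 831 genes in the deposited expression table. They were chosen as enzymes of serine and asparagine synthesis and as amino acid carriers, with measured values in view. Those values were the difference between mdx and Control muscle, in which Slc1a1 was low and the other 5 genes were high. The table itself is a selection, since in each of its genes the mdx/miR-133b-/- mean and the miR-133b-/- mean differ by at least 1.717-fold in one direction or the other. Differences of the 6 genes with mdx are therefore given as a description, without a test, and tests were made only of the differences with miR-133b. Those differences share libraries with the contrast that chose the table, so their tests are not free of that choice. All 6 genes were found in the table and no further filter on low values was applied. The lowest mean of a listed gene over the 16 libraries was 50.1, so genes of lower mean are absent from the table. Phgdh and Asns had means below that value in both groups without mdx and above it in both groups with mdx.

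RNA from whole tibialis anterior muscle, a fast limb muscle of the mouse, was sequenced at postnatal day 30 in 16 libraries. Control libraries are labelled wild type, and the miR-133b-/- libraries lack a microRNA of skeletal muscle on an otherwise unlabelled background. The mdx libraries carry the dystrophin mutation used as a model of Duchenne muscular dystrophy, labelled mdx-/-, and the mdx/miR-133b-/- libraries carry both changes. Each group has 4 libraries. The sources used here do not give strain, sex, the extent of the miR-133b deletion or whether each library came from a separate animal. The p-values therefore set differences of group means against the spread of these samples only, and part of that spread may be technical.

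Serine is made from a glycolytic intermediate by a short chain of enzymes that starts with Phgdh and Psat1, and it feeds glycine, one-carbon units and nucleotides. Asns makes asparagine from aspartate with nitrogen from glutamine. Carriers set what a cell takes from its surroundings: Slc7a11 exchanges glutamate for cystine, the precursor of glutathione, Slc7a7 exchanges cationic amino acids for neutral ones, and Slc1a1 takes up glutamate, aspartate and cysteine. Growing and repairing muscle draws on amino acids for protein synthesis, and macrophages, which enter dystrophic muscle, express several of these carriers.

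Values are reads scaled by the authors with 1 factor per library, called scaled reads here. The listed genes took 2356990 to 6000033 reads in a library; the table does not give the total depth. The median SD of log2 values over the 831 genes ranged from 0.21 in mdx, through 0.27 in Control and 0.38 in mdx/miR-133b-/-, to 0.43 in miR-133b-/- libraries. The description field of 14 of the 16 samples names the code of another sample, and groups were taken from the titles. Grouped by the descriptions, 0 genes passed between mdx and Control, against 550 by the titles. Markers of mature muscle fibres were abundant in all libraries, and their sums, which differed between the groups, are given beside the results.

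The gene starts were compared first, because the 6 genes form a group of 5 that were high with mdx and 1 that was low. All 6 matched promoters of the RefSeq table (build GRCm38.p6), which hold 250 bases before to 50 bases after each start, 11 promoters in all. They were searched on both strands for the C/EBP-ATF response element TGATGNAA, through which ATF4 is known to act on amino acid genes, and for the core of the antioxidant response element, TGACNNNGC. The lines that follow show the Asns promoter (chr6:7693160-7693459, minus strand), the Slc7a11 promoter (chr3:50443564-50443863, minus strand) and the first of the 5 Slc7a7 promoters (chr14:54417895-54418194, minus strand). They are shown because they hold a C/EBP-ATF match, and the Slc1a1 promoter (chr19:28834885-28835184, plus strand) is shown beside them as that of the gene that was low. Capitals mark the matches to either motif.
Asns: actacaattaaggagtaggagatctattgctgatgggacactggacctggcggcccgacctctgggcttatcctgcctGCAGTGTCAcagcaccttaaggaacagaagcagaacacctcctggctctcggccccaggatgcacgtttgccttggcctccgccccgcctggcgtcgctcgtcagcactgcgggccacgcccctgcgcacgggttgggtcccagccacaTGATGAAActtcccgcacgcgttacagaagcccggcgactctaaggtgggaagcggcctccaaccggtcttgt
Slc7a11: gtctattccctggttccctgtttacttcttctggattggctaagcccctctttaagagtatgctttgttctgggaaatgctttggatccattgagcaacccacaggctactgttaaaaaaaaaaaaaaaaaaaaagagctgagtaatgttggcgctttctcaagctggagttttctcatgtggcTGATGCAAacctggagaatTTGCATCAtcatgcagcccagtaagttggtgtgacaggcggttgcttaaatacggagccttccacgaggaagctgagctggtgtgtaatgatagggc
Slc7a7: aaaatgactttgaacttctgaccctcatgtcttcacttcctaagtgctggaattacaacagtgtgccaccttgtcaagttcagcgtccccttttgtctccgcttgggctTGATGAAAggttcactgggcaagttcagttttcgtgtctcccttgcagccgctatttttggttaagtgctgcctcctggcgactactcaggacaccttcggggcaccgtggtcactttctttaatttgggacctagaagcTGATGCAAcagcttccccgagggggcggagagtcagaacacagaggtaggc
Slc1a1: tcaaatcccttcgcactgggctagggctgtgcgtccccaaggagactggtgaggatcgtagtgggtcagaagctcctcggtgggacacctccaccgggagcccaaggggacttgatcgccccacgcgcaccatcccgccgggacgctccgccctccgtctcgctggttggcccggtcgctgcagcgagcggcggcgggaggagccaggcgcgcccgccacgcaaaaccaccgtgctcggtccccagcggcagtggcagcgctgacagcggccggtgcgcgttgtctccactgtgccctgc

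In Asns, the first base of the C/EBP-ATF match lies 23 bases before the start, and a match to the antioxidant core, on the other strand, begins 172 bases before it. Slc7a11 has C/EBP-ATF matches on opposite strands, beginning 66 and 47 bases before the start. Slc7a7 has matches 141 bases and 1 base before the start of its first promoter. The Phgdh promoter holds a match to the antioxidant core, on the reverse strand, 53 bases before the start. Neither motif was found in these windows in Psat1 or Slc1a1. The Psat1 starts used lie at -22278 and -22715 bases, in chromosome coordinates, from the gene start annotated by GENCODE, inside the gene. Slc7a7 had 5 windows and Slc1a1 had 1, so the genes were not searched over equal lengths. The C/EBP-ATF motif was found in promoters of 3 of the 6 genes, and in 4.51% of the 27025 genes of the table and 3.97% of its 32851 promoters. The antioxidant core was found in 2 of the 6 genes, in 14% of all genes and in 12.4% of all promoters. These matches describe letters, not binding.

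**Figure D1:**
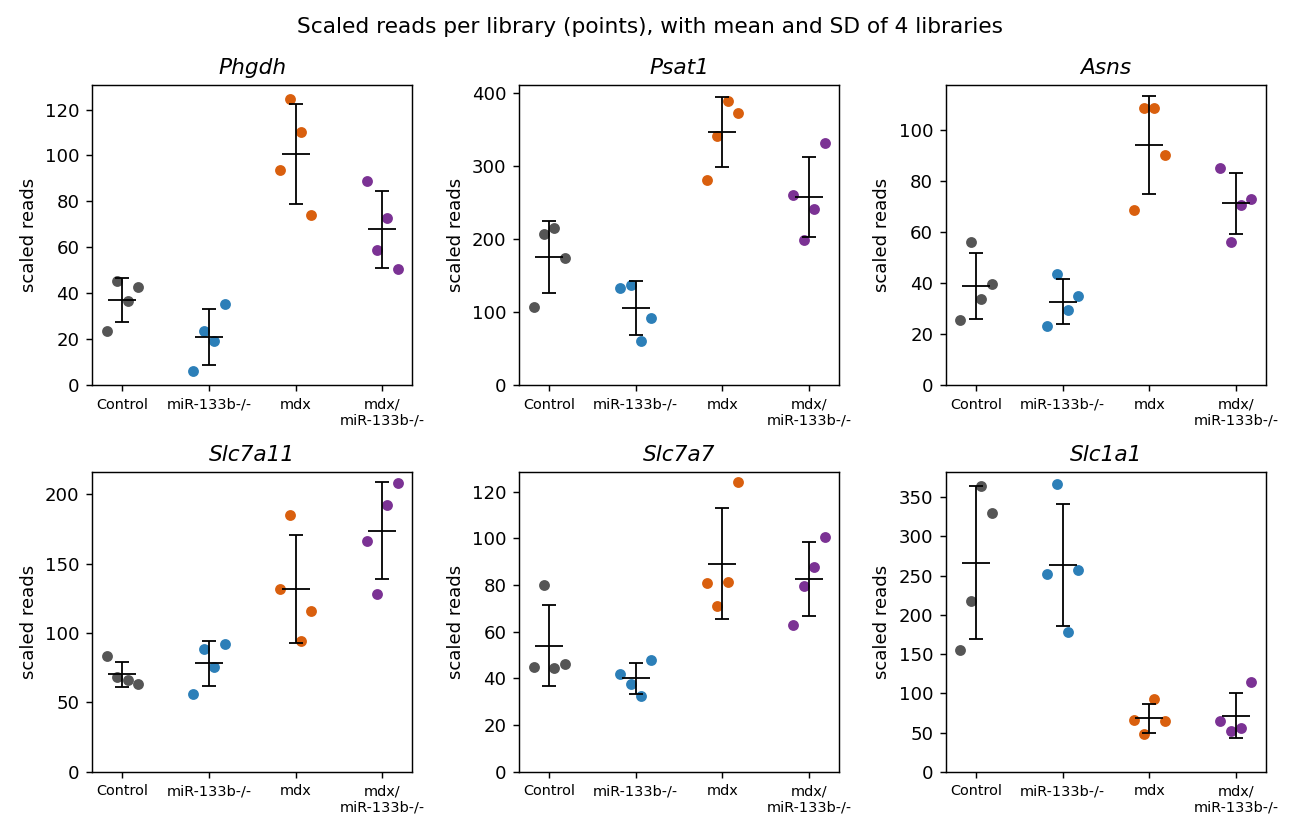
Scaled reads of the 6 genes (vertical axes, from 0, 1 panel per gene) in the 4 groups (horizontal axes); each point is 1 library, and the bars give the mean and SD of 4. Slc1a1 lies between 155 and 366 in the 8 libraries without mdx and between 48.3 and 115 in the 8 with it, and the other 5 genes have higher means with mdx.

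Phgdh, the dehydrogenase that commits glycolytic carbon to serine, had 23.6, 45.5, 36.6 and 42.5 scaled reads in Control libraries 1 to 4 and 93.5, 124.8, 110.4 and 74.1 in mdx libraries. It had 6.0, 23.6, 19.1 and 35.5 in miR-133b-/- libraries and 89.0, 59.0, 72.8 and 50.7 in mdx/miR-133b-/- libraries. Every library with mdx lay above every library without it. The means were 37 ± 9.71 (SD, n = 4) in Control and 101 ± 21.9 (SD, n = 4) in mdx, a log2 difference of 1.43 (SE 0.42), and the mdx/miR-133b-/- to miR-133b-/- difference was 1.84 (SE 0.42). The lowest value, 6.0 in miR-133b-/- library 1, rests on 6 reads. On chromosome 3 of GRCm38, Phgdh spans bases 98313170 to 98339990. Its longest transcript aligns at 90.4% to 98.7% identity to 21 other genes, 17 of them processed pseudogenes, so how its reads were assigned is uncertain.

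Psat1 is the aminotransferase that takes the next step. Its Control libraries had 106.5, 207.2, 215.0 and 174.6 scaled reads, and its mdx libraries had 280.4, 341.9, 389.6 and 373.3. The miR-133b-/- libraries had 133.0, 137.0, 60.3 and 91.4, and the mdx/miR-133b-/- libraries had 260.0, 198.8, 240.8 and 331.2. Control and mdx did not overlap, but mdx/miR-133b-/- library 2 lay below Control libraries 2 and 3. The mean was 176 ± 49.4 (SD, n = 4) in Control and 346 ± 48.2 (SD, n = 4) in mdx, a log2 difference of 1.01 (SE 0.27), beside 1.33 (SE 0.27) on the miR-133b-/- background. Psat1 lies on chromosome 19, bases 15904678 to 15947337, and has 1 pseudogene that matches 1056 bases of its transcript at 91.0% identity.

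Asns, the asparagine synthetase on chromosome 6 (bases 7675169 to 7693254), had 25.7, 56.2, 33.6 and 39.6 scaled reads in Control and 68.7, 108.9, 108.7 and 90.4 in mdx libraries. It had 23.0, 43.5, 29.4 and 35.1 in miR-133b-/- and 85.3, 56.3, 70.5 and 73.1 in mdx/miR-133b-/- libraries. The 8 libraries with mdx were all above the 8 without, although the lowest with mdx, at 56.3, was next to the highest without, at 56.2. The mean was 38.8 ± 12.9 (SD, n = 4) in Control and 94.2 ± 19.1 (SD, n = 4) in mdx. The log2 difference was 1.29 (SE 0.31), and on the miR-133b-/- background it was 1.12 (SE 0.31).

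Slc7a11, the cystine carrier, had 83.6, 68.2, 65.8 and 63.4 scaled reads in Control libraries and 132.0, 185.3, 94.4 and 115.6 in mdx libraries. Values were 56.0, 88.5, 75.8 and 92.4 in miR-133b-/- and 166.0, 127.9, 192.3 and 208.0 in mdx/miR-133b-/- libraries. The 2 ranges, 56 to 92.4 without mdx and 94.4 to 208 with it, did not overlap. Mean Slc7a11 was 70.3 ± 9.1 (SD, n = 4) in Control and 132 ± 38.9 (SD, n = 4) in mdx, and the highest mean was in mdx/miR-133b-/-, at 174 ± 35 (SD, n = 4). The log2 difference with mdx was 0.86 (SE 0.25), and 1.14 (SE 0.25) where miR-133b was also lost. The former was 0.54 once the trend of log2 values with GC content and length had been taken out of each library. Slc7a11 lies on chromosome 3, bases 49892526 to 50443614, and stretches of its long transcript of up to 585 bases align to 15 other genes, 3 of them tubulin genes.

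Slc7a7, the cationic and neutral amino acid exchanger, had the smallest log2 difference with mdx among the 6. Control libraries had 45.0, 80.2, 44.6 and 46.3 scaled reads and mdx libraries 80.8, 71.0, 81.1 and 124.0. The miR-133b-/- libraries had 42.0, 37.8, 32.4 and 47.9, and the mdx/miR-133b-/- libraries 62.8, 79.5, 87.8 and 100.7. Control library 2 lay above mdx library 2, so Control and mdx overlapped. The means were 54 ± 17.5 (SD, n = 4) and 89.2 ± 23.7 (SD, n = 4), a log2 difference of 0.73 (SE 0.28). It was 0.93 without Control library 2 and 0.56 without mdx library 4, the highest. On the miR-133b-/- background, the difference in Slc7a7 was 1.02 (SE 0.28) with no overlap. The gene lies on chromosome 14, bases 54369442 to 54417780, and 232 of its 3315 exon bases overlap Oxa1l on the opposite strand.

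Slc1a1, the glutamate and aspartate carrier, was low where the other 5 were high. It had 155.1, 217.3, 364.2 and 329.9 scaled reads in Control and 252.0, 366.2, 178.0 and 257.3 in miR-133b-/- libraries. In mdx libraries it had 66.5, 48.3, 93.3 and 64.5, and in mdx/miR-133b-/- libraries 65.1, 51.7, 55.4 and 114.6. No library with mdx reached the lowest library without it. The mean was 267 ± 97.3 (SD, n = 4) in Control and 68.2 ± 18.6 (SD, n = 4) in mdx, 3.91 times lower, and the log2 difference was -1.91 (SE 0.31). The difference between mdx/miR-133b-/- and miR-133b-/- means was -1.89 (SE 0.31). Of 8257 exon bases of Slc1a1 (chromosome 19, bases 28835049 to 28913960), 2631 overlap 4430402I18Rik on the opposite strand, and the sources used here do not say whether counting used strand.

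Control and mdx libraries did not overlap in 5 of the 6 genes, beside 70.4% of all listed genes, and mdx/miR-133b-/- and miR-133b-/- libraries did not overlap in any of the 6, beside 78.6%. Both contrasts chose these genes, so nothing is read from these shares. The median log2 difference between mdx and Control over the 831 genes was 0.44 and depends on the scaling. With factors of the relative log expression kind, taken from the listed genes, it was 0.09, and the calls split into 260 higher and 270 lower in place of 370 and 180. With those factors the differences were 1.08 for Phgdh, 0.66 for Psat1, 0.94 for Asns, 0.51 for Slc7a11, 0.37 for Slc7a7 and -2.26 for Slc1a1. In whole muscle, a change in the number of cells of a type and a change in RNA per cell cannot be told apart.

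**Figure D2:**
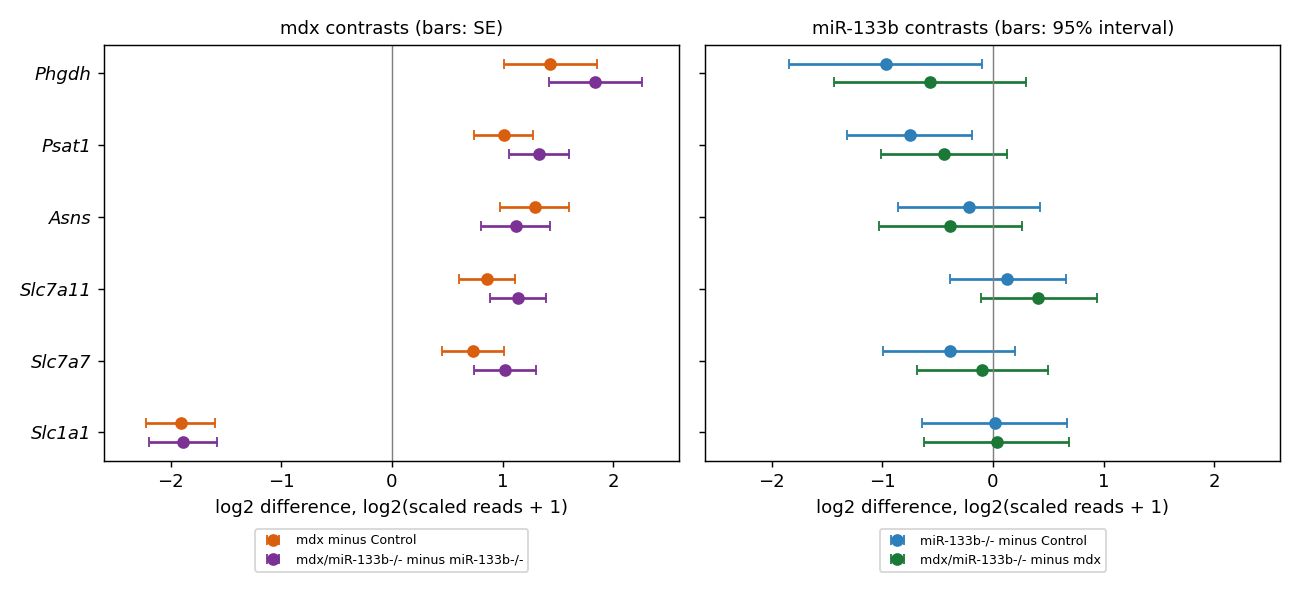
Differences in log2(scaled reads + 1) (horizontal axes) for each gene (vertical axes); left, the 2 mdx contrasts with SE bars, given as a description, and right, the 2 miR-133b contrasts with 95% intervals. On the left, Slc1a1 is at -1.91 and -1.89 and the other genes lie between 0.73 and 1.84; on the right, the intervals of Phgdh and Psat1 between miR-133b-/- and Control end below 0 and all others include it.

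Per kilobase of the longest transcript, Slc1a1 and Psat1 had the highest mean levels in Control, 70.2 ± 25.6 (SD, n = 4) and 67.2 ± 18.9 (SD, n = 4) scaled reads per kilobase. They did not differ beyond their spread. Slc7a7 at 23.7 ± 7.67, Phgdh at 19.6 ± 5.13 and Asns at 19.2 ± 6.41 (SD, n = 4 each) came next, also within their spread of each other, and Slc7a11 was lowest at 7.62 ± 0.987 (SD, n = 4). In mdx the order was Psat1 at 132 ± 18.4, Phgdh at 53.2 ± 11.6, Asns at 46.7 ± 9.45, Slc7a7 at 39.2 ± 10.4, Slc1a1 at 17.9 ± 4.9 and Slc7a11 at 14.3 ± 4.21 scaled reads per kilobase (SD, n = 4 each). Phgdh, Asns and Slc7a7 were within their spread of each other, as were Slc1a1 and Slc7a11. Slc1a1 thus went from the first place to the fifth by mean. The order in mdx/miR-133b-/- libraries again had Psat1 first, at 98.5 ± 21.1, and Slc1a1 and Slc7a11 last, at 18.9 ± 7.66 and 18.8 ± 3.8 (SD, n = 4 each).

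A ratio of the scaled reads of 2 genes within a library is free of the library's scaling factor. Phgdh relative to Slc1a1 lay between 0.0238 and 0.209 in the 8 libraries without mdx and between 0.443 and 2.58 in the 8 with it. Psat1 relative to Slc1a1 was below 1 in all libraries without mdx, at 0.339 to 0.953, and 2.89 to 7.08 with it. Asns relative to Slc1a1 was 0.0913 to 0.259 without mdx and 0.638 to 2.25 with it. Slc7a11 relative to Slc1a1 was 0.181 to 0.539 without mdx and 1.01 to 3.84 with it, and for Slc7a7 the ratio was 0.103 to 0.369 and 0.87 to 1.92. Slc7a11 was thus above Slc1a1 in all 8 libraries with mdx, while Slc7a7 stayed below it in 3 of them. None of the 5 ratios overlapped between the libraries with and without mdx. The genes were chosen for these opposite directions, so the gap is a description.

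**Figure D3:**
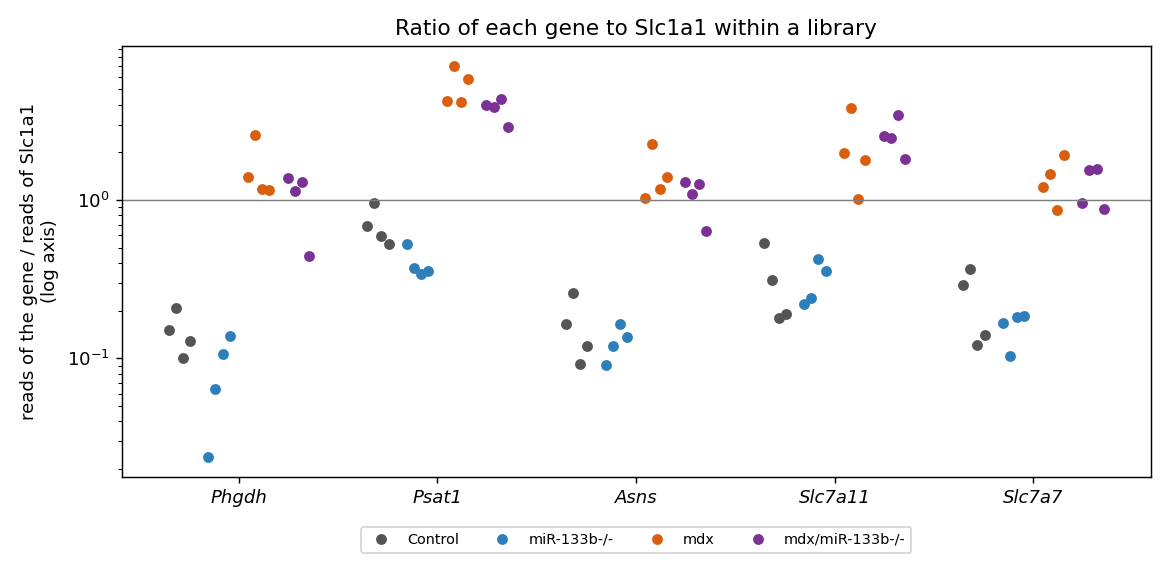
Scaled reads of each of 5 genes divided by those of Slc1a1 in the same library (vertical axis, log scale); each point is 1 library, and the line marks a ratio of 1. Psat1 is at 0.339 to 0.953 without mdx and 2.89 to 7.08 with it, and none of the 5 ratios overlaps between the 8 libraries without mdx and the 8 with it.

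Loss of miR-133b was compared with Control where dystrophin is present. Both serine genes had lower means without miR-133b, and neither passed the test over all genes. Phgdh was 21.1 ± 12.2 (SD, n = 4) scaled reads in miR-133b-/- against 37 ± 9.71 (SD, n = 4) in Control, a log2 difference of -0.97 (95% interval -1.84 to -0.10, limma unadjusted p = 0.0309, adjusted p = 0.423). Without miR-133b-/- library 1, which holds 6 Phgdh reads, the difference was -0.50. Psat1 was 105 ± 36.5 (SD, n = 4) against 176 ± 49.4 (SD, n = 4), a log2 difference of -0.75 (95% interval -1.32 to -0.19, limma unadjusted p = 0.0118, adjusted p = 0.359). The Phgdh and Psat1 libraries of the 2 groups overlapped.

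The other 4 genes differed less between miR-133b-/- and Control. The log2 difference was -0.22 for Asns (95% interval -0.86 to 0.43), 0.13 for Slc7a11 (-0.39 to 0.66), -0.39 for Slc7a7 (-0.99 to 0.20) and 0.02 for Slc1a1 (-0.64 to 0.67), with limma adjusted p-values of 0.699 to 0.993. An interval that includes 0 does not show that the levels are alike: for Slc1a1 it allows a difference of up to 1.59-fold upward. In this comparison 0% of the 831 genes passed limma at an adjusted p of 0.05, 84 had an unadjusted p under 0.05, limma-voom called 0, and 4.69% had groups that did not overlap. None of the 6 genes was among the latter.

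In mdx muscle, loss of miR-133b left all 6 genes short of the threshold, where 19.5% of all listed genes passed and 26.6% had groups that did not overlap. All 6 overlapped, none had an unadjusted p under 0.05, and limma-voom called none of them. Phgdh was 67.8 ± 16.8 (SD, n = 4) in mdx/miR-133b-/- against 101 ± 21.9 (SD, n = 4) in mdx, a log2 difference of -0.57 (95% interval -1.44 to 0.30, limma adjusted p = 0.38). Psat1 was 258 ± 55.2 (SD, n = 4) against 346 ± 48.2 (SD, n = 4), a difference of -0.44 (95% interval -1.01 to 0.13, limma adjusted p = 0.284). Asns was 71.3 ± 11.9 (SD, n = 4) against 94.2 ± 19.1 (SD, n = 4), a difference of -0.39 (95% interval -1.03 to 0.26, limma adjusted p = 0.416). With the GC content and length trend removed, the Phgdh difference was -0.13. The means of the 3 synthesis enzymes, and that of the carrier Slc7a7, were lower without miR-133b on both backgrounds, with no difference past the threshold.

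The carriers did not share 1 direction. Slc7a11 was 174 ± 35 (SD, n = 4) in mdx/miR-133b-/- against 132 ± 38.9 (SD, n = 4) in mdx, a log2 difference of 0.41 (95% interval -0.11 to 0.94, limma adjusted p = 0.269). That direction turned to -0.16 after removal, library by library, of the trend of log2 values with GC content and length. Slc7a7 differed by -0.10 (95% interval -0.69 to 0.50, limma adjusted p = 0.866), which turned to 0.12 with the same removal. Slc1a1 differed by 0.04 (95% interval -0.62 to 0.69, limma adjusted p = 0.954), a value that changed sign with scaling and with the libraries used.

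The difference between the 2 backgrounds was tested as an interaction, in which 0.963% of the listed genes passed and none of the 6 did. It equals the mdx difference on the miR-133b-/- background minus the difference between mdx and Control. Those contrasts chose the table and the 6 genes, so the interaction tests are not free of that choice. The interaction was 0.40 for Phgdh (95% interval -0.83 to 1.64), 0.32 for Psat1 (-0.49 to 1.12), -0.17 for Asns (-1.08 to 0.74), 0.28 for Slc7a11 (-0.46 to 1.02), 0.30 for Slc7a7 (-0.54 to 1.14) and 0.02 for Slc1a1 (-0.90 to 0.95) on the log2 scale. Limma adjusted p-values were 0.671 to 0.988, none of the 6 had an unadjusted p under 0.05, and limma-voom called 0. The intervals are wide enough to hold a change of Phgdh on 1 background that is 3.11 times that on the other.

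Within the 4 groups, the genes did not vary as 1 block. Over the 16 libraries, with each group's mean removed, Phgdh and Asns had a Pearson r of 0.68 and Psat1 and Asns 0.49, while Phgdh and Psat1, the consecutive serine enzymes, had -0.06. Psat1 and Slc1a1 had 0.75 within groups, opposite in sign to their r of -0.58 across all libraries. Slc7a11 and Slc7a7 had -0.05. The 16 points share libraries and scaling, and these r are descriptions.

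Each gene was set beside the listed genes whose log2 values were most like its own over the 16 libraries, by Pearson r. Phgdh was most like Ppfia4 (0.95), Col5a3 (0.93), a fibrillar collagen, and Fam171a2 (0.93), and Asns was most like Ppfia4 (0.94), Fam171a2 (0.93) and Axl (0.92), a receptor tyrosine kinase. Psat1 was most like Mymk (0.94), the membrane protein that drives fusion of myoblasts, C1qtnf3 (0.92) and Vcan (0.91), a matrix proteoglycan. Slc7a11 was most like B4galt6 (0.92), Cd33 (0.91) and Ms4a6b (0.91), the latter pair being surface proteins of immune cells. Slc7a7 was most like Nox4 (0.88), an oxidase, Dab2 (0.87), an endocytic adaptor, and St3gal4 (0.87). Slc1a1 was most like Flt1 (0.91), a receptor of the vascular endothelium, Dach2 (0.91) and Usp2 (0.89). The r are set mostly by the gap between libraries with and without mdx, which most listed genes share.

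Markers of regenerating fibres moved with mdx beside these genes. The 7 of 9 that are listed, among them Myog, Mymk and Myh3, summed to 1215 to 3635 scaled reads in Control and 788 to 3140 in miR-133b-/- libraries. The sum was 8558 to 11794 with mdx and 7306 to 14935 with both changes, and no marker was at 0. All 7 passed as higher in mdx, where 66.2% of all listed genes passed, 370 as higher and 180 as lower. Markers are listed only if they differed between mdx/miR-133b-/- and miR-133b-/- means. Nothing is therefore read from this or the other counts of markers that passed. Within groups, r with that sum was 0.69 for Asns, 0.66 for Psat1, 0.33 for Phgdh, 0.33 for Slc1a1, 0.07 for Slc7a7 and -0.05 for Slc7a11. In Control, library 2 had the highest sum and the highest Phgdh, Asns and Slc7a7. Control library 1 had the lowest sum, the lowest Phgdh, Psat1, Asns and Slc1a1, and the highest Slc7a11.

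Macrophage markers also moved with mdx. The 14 of 20 that are listed, among them Adgre1, Csf1r and Mrc1, summed to 1559 to 2375 scaled reads in Control and 1066 to 2857 in miR-133b-/- libraries. The sum was 7178 to 10750 with mdx and 4188 to 14833 with both changes. None was at 0, and 13 passed as higher in mdx, beside 66.2% of all listed genes that passed in either direction. Within groups, r with the macrophage sum was 0.33 for Slc7a11, 0.29 for Psat1, 0.22 for Asns, 0.19 for Slc7a7, 0.14 for Slc1a1 and 0.09 for Phgdh. Fibroblast markers (4 of 11 listed, Pdgfra, Lum, Col3a1 and Fap) summed to 11304 to 20498 in Control and 32628 to 34929 in mdx, and all 4 passed as higher. Within groups, r with the fibroblast sum was 0.58 for Psat1, 0.42 for Asns, 0.39 for Phgdh, 0.35 for Slc1a1, 0.16 for Slc7a7 and -0.14 for Slc7a11. Flt1, the 1 of 8 endothelial markers that is listed, was 1687 to 2039 in Control and 856 to 1301 in mdx and passed as lower.

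The listed mature fibre markers had a lower sum in mdx than in Control. Markers that differed by less than 1.717-fold between mdx/miR-133b-/- and miR-133b-/- means are absent from the table, so a fall of such markers in general is not shown. The 4 of 15 that are listed, Ckm, Myh4, Actn3 and Pvalb, summed to 592292 to 730110 scaled reads in Control and 314869 to 730433 in miR-133b-/- libraries. The sum was 375355 to 552424 with mdx and 256312 to 320334 with both changes. The ranges of miR-133b-/- and mdx libraries overlapped. Between mdx and Control, 2 of the 4 passed as lower, beside 66.2% of all listed genes that passed in either direction. Between mdx/miR-133b-/- and mdx, 3 passed as lower, beside 19.5%. Within groups, r with this sum was -0.52 for Asns, -0.41 for Psat1, -0.33 for Slc7a11, -0.25 for Slc1a1, -0.23 for Phgdh and -0.11 for Slc7a7. The part of any of these cell types in the differences of the 6 genes, or of other amino acid genes, was not tested.

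**Figure D4:**
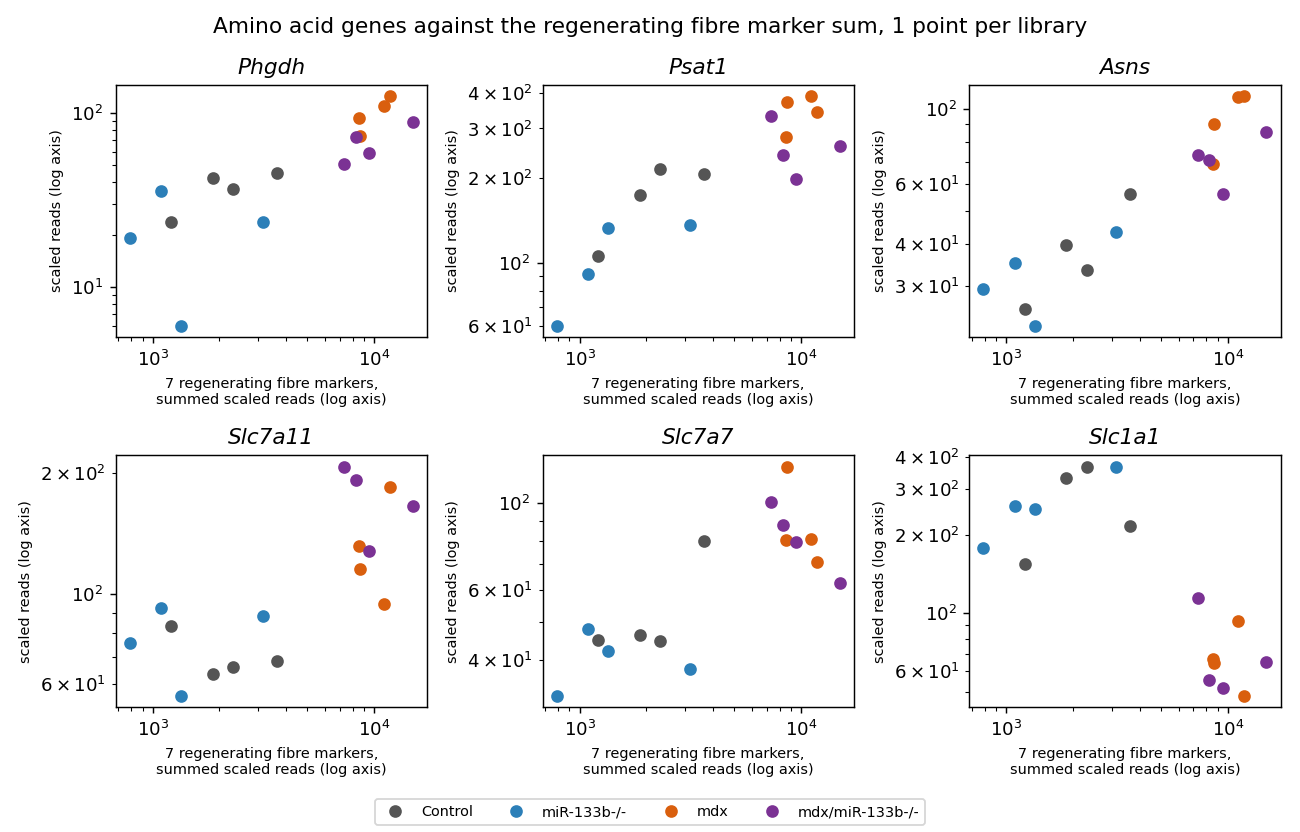
Scaled reads of each gene (vertical axes, log scale) against the summed scaled reads of 7 regenerating fibre markers (horizontal axes, log scale); each point is 1 library. The sum is at most 3635 without mdx and at least 7306 with it, and within groups r is 0.69 for Asns, 0.66 for Psat1 and -0.05 for Slc7a11.

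Among other genes of amino acid metabolism in the table, more fell than rose with mdx. Of 354 genes in 9 lists, 22 are in the table and 16 of these are not among the 6. Between mdx and Control, 1 of the 16 passed as higher, 6 passed as lower and 9 did not pass, where 66.2% of all listed genes passed. Their median log2 difference was -0.42, beside 0.44 over all listed genes. The 6 genes set aside were mostly chosen as high with mdx, so the balance and the median of the 16 depend on that choice. Nothing is read from them about amino acid genes as a whole. Among the serine, glycine and folate enzymes, only Phgdh and Psat1 of 25 are listed, and none of 57 aminoacyl-tRNA synthetase genes and none of 29 ATF4 and amino acid stress genes was analysed here.

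Slc38a1, a sodium-coupled carrier of glutamine and other neutral amino acids, was the 1 that rose. It had 32.2, 46.7, 40.2 and 36.6 scaled reads in Control libraries and 161.7, 233.1, 167.2 and 137.0 in mdx libraries. The groups were far apart, and the log2 difference was 2.12 (95% interval 1.32 to 2.92, limma adjusted p = 0.000208). Its means were 38.9 in Control and 42.1 in miR-133b-/- libraries, below 50.1, the lowest mean of a listed gene over all libraries. They were 175 in mdx and 188 in mdx/miR-133b-/- libraries. Slc38a1 is thus listed only through the groups in which it was high, and its test is not free of that choice. The other 3 listed carriers did not pass. Slc38a6 differed by 0.47, Slc38a3 by -0.42 and Sfxn1, a mitochondrial serine carrier, by 0.49.

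Enzymes of polyamine metabolism were among those that fell with mdx. Amd1, which makes the aminopropyl donor for polyamines, had 4256.9, 1029.1, 917.7 and 2092.0 scaled reads in Control and 497.6, 433.1, 688.2 and 440.6 in mdx libraries. The groups did not overlap, and the spread in Control was wide, with library 1 far above the rest. The log2 difference of Amd1 was -1.75 (95% interval -2.55 to -0.95, limma adjusted p = 0.000888), or -1.31 without Control library 1. Amd1 has a near-identical copy, Amd2, so how its reads were assigned is uncertain. Smox, the spermine oxidase, fell by 1.29 on the log2 scale (limma adjusted p = 0.00527), and by 0.88 without Control library 1. Its Control and mdx libraries overlapped. Rragd, a GTPase through which amino acids signal to mTORC1, fell by 0.91, and Asrgl1, an asparaginase, fell by 0.59 (limma adjusted p = 0.005). Adssl1, the muscle adenylosuccinate synthase, fell by 0.74, a call lost without Control library 1 (limma adjusted p = 0.0596). Adi1, of methionine salvage, fell by 0.54, and its Control and mdx libraries overlapped. That call was lost without Control library 1, Control library 4, mdx library 2 or mdx library 4 in turn (limma adjusted p up to 0.0726). The enzymes that did not pass included Ivd (-0.36) and Mccc1 (-0.42), of leucine breakdown, and Bckdk (-0.38), a kinase that restrains branched-chain breakdown. Got1 (-0.37), Mpst (-0.57) and Sat1 (0.58) did not pass either.

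**Figure D5:**
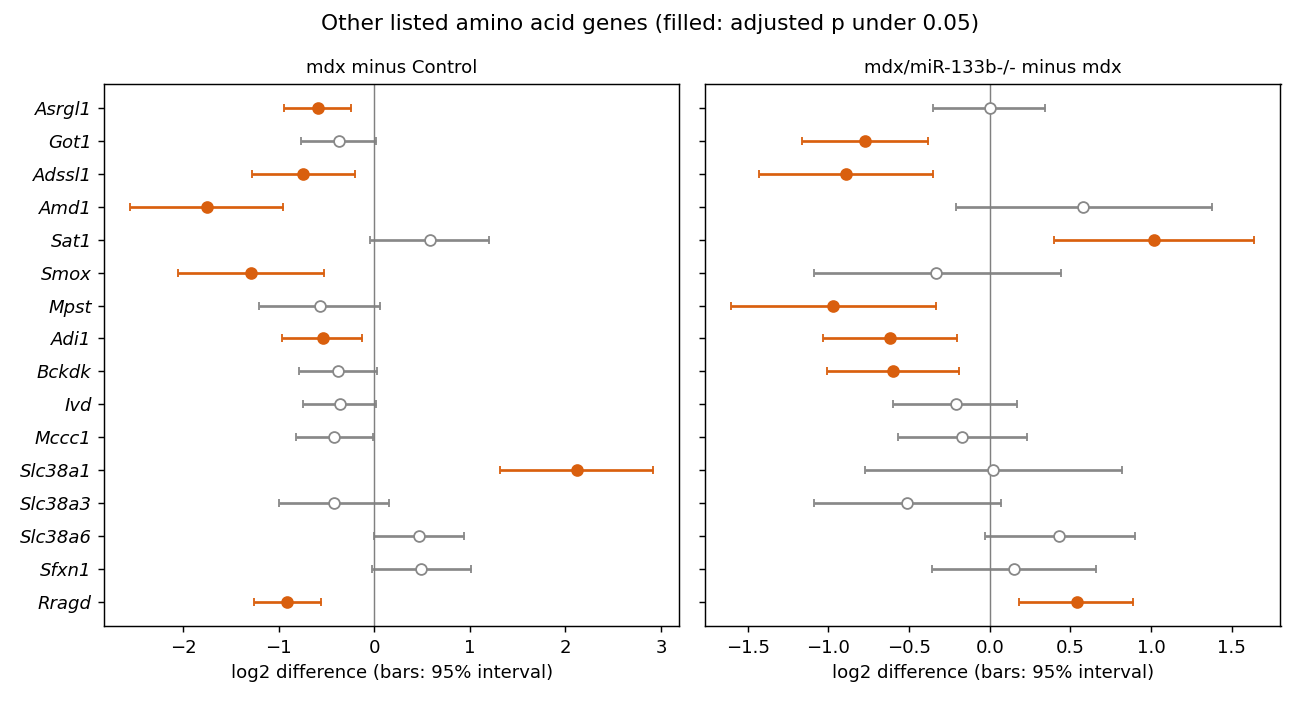
Differences in log2(scaled reads + 1) with 95% intervals (horizontal axes) for the 16 other listed genes of amino acid metabolism (vertical axis), between mdx and Control on the left and between mdx/miR-133b-/- and mdx on the right; filled points passed limma at an adjusted p of 0.05. On the left, Slc38a1 at 2.12 is the 1 gene that passed as higher and 6 passed as lower; on the right, 2 passed as higher and 5 as lower.

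Between mdx/miR-133b-/- and mdx, 2 of the 16 passed as higher, 5 as lower and 9 did not pass. Of all listed genes 19.5% passed, 62 as higher and 100 as lower. The median of the 16 was -0.19, beside -0.04 over all listed genes. The mature fibre sum was also lower in this comparison, at 256312 to 320334 against 375355 to 552424 scaled reads. Got1, the cytosolic aspartate aminotransferase, had 2639.8, 2296.4, 3621.3 and 3281.3 scaled reads in mdx and 2133.0, 1816.3, 1396.5 and 1581.4 in mdx/miR-133b-/- libraries, without overlap. Its log2 difference was -0.77 (95% interval -1.16 to -0.38, limma adjusted p = 0.0127), a call lost without mdx library 3 (limma adjusted p = 0.0542). Sat1, which acetylates polyamines for export or breakdown, had 609.8, 625.2, 861.4 and 584.3 scaled reads in mdx and 1015.6, 1380.3, 1191.5 and 1937.6 in mdx/miR-133b-/- libraries, a log2 difference of 1.02 (limma adjusted p = 0.0256). That call was lost without mdx library 1, 2 or 4 or mdx/miR-133b-/- library 4 (limma adjusted p up to 0.092).

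The 5 remaining calls of that comparison were lost under more alternatives. Adssl1 fell by 0.89, Mpst, a sulfurtransferase of cysteine breakdown, by 0.97, Adi1 by 0.62 and Bckdk, the kinase that restrains breakdown of branched-chain amino acids, by 0.60, and Rragd rose by 0.54, with limma adjusted p-values of 0.0244 to 0.0401. The Rragd libraries of the compared groups overlapped. All 5 calls were lost when the trend with GC content and length was removed, with differences of -0.50 for Adssl1, -0.46 for Mpst, -0.53 for Adi1, -0.48 for Bckdk and 0.33 for Rragd. The Bckdk and Rragd calls were also lost with relative log expression factors and without the variance trend. Leaving out single libraries ended the Adssl1 call for mdx libraries 1 and 3 and mdx/miR-133b-/- libraries 3 and 4, and the Mpst call for mdx libraries 1, 2 and 3 and mdx/miR-133b-/- libraries 3 and 4. It ended the Adi1 call for mdx libraries 1, 3 and 4 and mdx/miR-133b-/- libraries 2, 3 and 4, and the Bckdk call for each of the mdx libraries and mdx/miR-133b-/- libraries 3 and 4. The Rragd call was lost without each of the mdx libraries and without mdx/miR-133b-/- library 2, 3 or 4. Between miR-133b-/- and Control, and in the interaction, none of the 16 passed limma at an adjusted p of 0.05 and limma-voom called 0. An unadjusted p under 0.05 was found for 2 of them in the former, Amd1 and Rragd, beside 84 of all 831 listed genes. In the latter it was found for 3, Adi1, Got1 and Sat1, beside 172 of 831.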

How the data were processed

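RNA-seq of mouse tibialis anterior muscle was analysed in 16 libraries, grouped by the code in each title. Per the labels' protocols, an Aurum kit (Bio-Rad) was used for RNA, with DNase treatment. Per the submitters' processing notes, HISAT2, HTSeq and the GRCm38 build were used; versions, settings and use of strand are not stated. The deposited table holds a signal value per gene, made by the authors from whole reads times a factor of each library (0.459 to 1.0): divided by it, 100% of the values were whole to within 0.001 read. Symbols, lengths and GRCm38 coordinates came from GENCODE M21, which held all 831 identifiers.

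Log2(deposited signal + 1) was fitted with limma 3.58.1 in R 4.3.3, with 1 mean per group over all 16 libraries, moderated variances with a trend, and p-values adjusted by Benjamini-Hochberg over all 831 listed genes, with a threshold of 0.05. Fold changes on that scale understate the change of low genes. The procedure was tried on simulated data only for the contrast of mdx with Control, with the same spread in every group. The miR-133b contrasts and the interaction were not tried in this way. The 6 genes and the 9 pathway and 9 marker lists were chosen with earlier results of these data known. The rule named the 6 genes, all listed genes of a pathway list where at most 6 are listed and otherwise the 4 with the smallest p in mdx against Control, the 3 genes most like each of the 6 by r, and up to 3 markers a list. The other listed carriers and 1 further marker each of fibroblasts and mature fibres were named beyond it, after their values were seen. Alternatives covered scaling, pseudocounts of 0.5 and 10, a minimum mean of 100, the variance trend, limma-voom on recovered reads, fits on 2 groups, a replicate block, GC content and length, grouping by the descriptions, and leaving out each library.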

Additional observations from a re-analysis of the deposited data

Results flagged for a closer look

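In 88 groups of 4 libraries, for 22 genes of amino acid metabolism, 7 had 1 library whose gap to the nearest of the others exceeded Dixon's 95% critical value as a share of the group's range. Chance gives about 1 in 20 groups.

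Slc7a7 was 80.2 scaled reads in Control library 2 and 44.6 to 46.3 in the other 3 Control libraries. Smox was 2829.8 in Control library 1, with 980 the next value. Bckdk was 1323.4 in Control library 1, with 1035 the next value. Sat1 was 861.4 in mdx library 3, with 625 the next value. Slc38a6 was 640.5 in mdx library 2, with 425 the next value, and 780.8 in mdx/miR-133b-/- library 3, with 580 the next value. Rragd was lowest in mdx/miR-133b-/- library 1, at 3146.7, with 4548 the next value.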

How the results depend on the processing

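No difference of the 6 genes between miR-133b-/- and Control, between mdx/miR-133b-/- and mdx, or in the interaction passed the threshold under any of 25 to 27 alternatives. The 550 calls between mdx and Control became 0 with groups by the description codes, and 474 to 578 when single libraries were left out. The 162 calls between mdx/miR-133b-/- and mdx became 55 when the GC content and length trend was removed, and 55 with that and the replicate block. Single libraries moved them to 49 to 197: 71, 56 and 84 without mdx libraries 1, 3 and 4, and 70 and 49 without mdx/miR-133b-/- libraries 3 and 4. The 8 interaction calls became 4 with a minimum mean of 100, 14 with relative log expression factors and 5 with the GC content and length trend removed. Leaving out single libraries gave 7 to 110, with 110 without miR-133b-/- library 2 and 15 without mdx/miR-133b-/- library 1. Where not given here, the cause of these moves was not tested.

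Among the 6 genes, signs changed only for differences that did not pass. For Slc1a1, miR-133b-/- minus Control was -0.01 with upper quartile factors and -0.22 to 0.19 without single libraries. Its mdx/miR-133b-/- minus mdx difference was -0.01 with relative log expression factors, -0.04 with the GC content and length trend removed with or without the block, and -0.21 to 0.20 without single libraries. Its interaction was -0.18 with relative log expression factors, -0.01 with limma-voom, -0.05 with the GC content and length trend removed with or without the block, and -0.23 to 0.25 without single libraries. With that trend removed, with or without the block, Slc7a11 was -0.16 in mdx/miR-133b-/- minus mdx and -0.26 in the interaction, and Slc7a7 was 0.12 in the former. Without single libraries, Slc7a7 was -0.20 to 0.07 there, and the interaction was -0.07 to 0.72 for Phgdh and -0.36 to 0.00 for Asns.

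With the replicate block, calls were 541 between mdx and Control, 0 between miR-133b-/- and Control, 120 between mdx/miR-133b-/- and mdx and 7 in the interaction, and Mpst, Adi1, Bckdk and Rragd no longer passed between mdx/miR-133b-/- and mdx. With the block and the GC content and length trend removed together, Got1 (-0.53) and Sat1 (1.05) did not pass there either, nor did Adi1 between mdx and Control (-0.42). No pairing of libraries by number was seen in the listed genes: r between same-numbered libraries was -0.23 to 0.15, and the best partner had the same number in 1 of 12 cases. With so few libraries in a group, that does not show that no pairing exists. The quasi-likelihood count test on recovered reads that had been planned was not run, because the unit check took the values as a scaled signal. A minimum mean of 100 left Phgdh, Asns and Slc7a7 without a value, and fits on 2 groups give no interaction. Counts of 6 Phgdh reads in a library limit its precision.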
